A study of Mus musculus with 300 samples.

Results

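The respiratory chain genes described here are the nuclear genes whose array annotation names a subunit of NADH dehydrogenase (symbols beginning Nduf followed by a, b, c, s or v), succinate dehydrogenase (Sdha to Sdhd), the cytochrome bc1 complex (Uqcr) or cytochrome c oxidase (Cox4 to Cox8, without Cox6b2). They came to 72 of the 18193 genes measured, each read from the probe set with the highest mean, and 41 of them had several probe sets. Complex I had 36 genes and complex II had 4, complex III had 8 and complex IV had 16. Genes were assigned by symbol, so Ndufa4, now assigned to complex IV, and its relative Ndufa4l2 are counted in complex I. The symbol pattern also admitted 8 complex I assembly factors, Ndufaf1 to Ndufaf8, which are kept apart because they build the complex and are not part of it. Another 16 symbols that match the pattern had no probe set of a single gene and were not analysed here.

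Mice received vehicle or 1 of 3 agonists of the peroxisome proliferator-activated receptors (PPARs) by mouth: WY14643, which acts on PPAR-alpha, GW501516, which acts on PPAR-delta, or rosiglitazone, which acts on PPAR-gamma. Each compound was given at 10 mg/kg, and tissue was taken on day 4, 8 or 15. Liver, heart, kidney and skeletal muscle of each mouse were hybridised to Affymetrix mouse expression arrays, so that each tissue had 10 vehicle arrays and 5 arrays of each compound on each day, or 75 arrays a tissue and 300 in all. All groups were intact mice with no altered gene named in the labels, and the sources used here give neither their strain, sex or age nor the vehicle or the hour of collection.

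The respiratory chain moves electrons from NADH and succinate to oxygen: complex I and complex II feed ubiquinone, complex III passes the electrons on to cytochrome c, and complex IV reduces oxygen, while complexes I, III and IV pump the protons that drive ATP synthesis. Several complex IV subunits exist as a pair of isoforms, one found in most tissues and one found mainly in heart and skeletal muscle, such as Cox6a1 and Cox6a2, Cox7a2 and Cox7a1, and Cox8a and Cox8b. PPARs are nuclear receptors that bind DNA with the retinoid X receptor, and PPAR-alpha is known in rodent liver for inducing fatty acid oxidation, whose electrons enter this chain.

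The 250 bases upstream of the start of 4 genes are printed because these genes carry the liver results. They are Cox7a1 (mouse GRCm38.p6, chr7:30183921-30184170, plus strand), Ndufab1 (chr7:122101849-122102098, minus strand), Ndufa7 (chr17:33824322-33824571, plus strand) and Ndufaf4 (chr4:24897833-24898082, plus strand), from RefSeq and written 5′ to 3′ along the gene. Capitals mark the NRF1 (nuclear respiratory factor 1) palindrome in Ndufaf4, the one match to the searched motifs.
Cox7a1: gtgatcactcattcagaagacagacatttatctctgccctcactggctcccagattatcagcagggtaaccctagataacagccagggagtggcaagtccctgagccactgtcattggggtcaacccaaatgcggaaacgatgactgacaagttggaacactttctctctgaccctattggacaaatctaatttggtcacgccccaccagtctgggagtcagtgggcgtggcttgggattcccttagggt
Ndufab1: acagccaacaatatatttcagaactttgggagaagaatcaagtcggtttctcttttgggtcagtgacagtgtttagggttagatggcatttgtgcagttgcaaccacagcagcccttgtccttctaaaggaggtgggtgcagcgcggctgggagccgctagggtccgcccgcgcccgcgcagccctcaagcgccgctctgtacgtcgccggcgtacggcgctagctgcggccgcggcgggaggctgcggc
Ndufa7: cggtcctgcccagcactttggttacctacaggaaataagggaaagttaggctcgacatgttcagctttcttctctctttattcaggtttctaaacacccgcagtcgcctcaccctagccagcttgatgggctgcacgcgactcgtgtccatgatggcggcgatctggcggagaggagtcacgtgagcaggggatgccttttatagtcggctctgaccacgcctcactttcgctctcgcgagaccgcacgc
Ndufaf4: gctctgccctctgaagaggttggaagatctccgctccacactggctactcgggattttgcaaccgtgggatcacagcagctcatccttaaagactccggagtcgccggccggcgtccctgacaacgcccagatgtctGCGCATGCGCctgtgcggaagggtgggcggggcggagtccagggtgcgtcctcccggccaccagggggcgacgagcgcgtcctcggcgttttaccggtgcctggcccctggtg
The GC content of these stretches was 51.2% for Cox7a1, 60.8% for Ndufab1, 56% for Ndufa7 and 66.4% for Ndufaf4.

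The search covered both strands of the 250 bases upstream of 27025 genes, which included 58 of the 72 members. The NRF1 palindrome, spelled by the capitals in the Ndufaf4 sequence, was present upstream of 0.877% of all genes and of 2 members, Cox6a1 and Ndufaf4. The ETS (GABP) motif CCGGAAGT was present in 3.23% of all genes and in 2 members, Uqcr11 and Uqcrh. The estrogen-related receptor element TCAAGGTCA, in 0.422% of all genes, and the PPAR direct repeat, AGGTCA on either side of 1 free base, in 0.0407%, had no match in the 58 members. A match is a description of these letters and not a binding site.

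Levels are log2 values after robust multi-array averaging (RMA), and the median of all probe sets on an array was 6.12 to 6.26 for liver, 7.27 to 7.44 for heart, 5.05 to 5.38 for kidney and 4.98 to 5.13 for skeletal muscle. Tissues were therefore fitted separately. The defining markers of each labelled tissue were high there: the mean of 7 hepatocyte genes in liver was 14.3 to 14.4, and that of 5 proximal tubule genes in kidney was 11.5 to 12.6. Brown adipocyte markers (Ucp1, Cidea and Elovl3) varied over a wide range in skeletal muscle, from 3.53 to 11.1 among vehicle arrays. Markers of other tissues varied as well. The hepatocyte mean ran from 6.97 to 12.4 on vehicle hearts (median 9.99) and from 4.05 to 10.5 on vehicle muscles (median 5.35). The proximal tubule mean ran from 5.22 to 8.64 on vehicle hearts (median 5.51). The part of such signal in the member values, and in the differences between tissues, was not tested. There were 9 arrays whose spread around the group mean over all genes was at least 1.6 times the tissue median. They were 2 of the liver, 2 of the heart, 2 of the kidney and 3 of the muscle arrays, 7 of the 9 had received WY14643, and the one farthest out was replicate 1 of kidney GW501516 on day 8. In bulk tissue, fewer cells of a type and less RNA per cell cannot be told apart.

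In vehicle-treated mice the isoform pairs of complex IV kept their known tissue pattern. Each tissue has its own normalised distribution, so levels set across tissues are descriptive. Cox7a1, the heart and muscle form of subunit 7a, had a vehicle level of 6.72 ± 0.28 (liver; SD, n = 30), 7.64 ± 0.18 (kidney), 11.61 ± 0.15 (muscle) and 13.67 ± 0.06 (heart). Cox6a2, the heart and muscle form of subunit 6a, stood at 6.42, 5.59, 12.74 and 14.37 in the same order, and Cox8b was at 5.42 in liver and 13.71 in heart. The forms found in most tissues differed less: Cox7a2 ranged from 13.12 in muscle to 14.55 in heart, and Cox4i1 from 12.20 in kidney to 14.03 in heart. Of the 72 members, 48 had a vehicle mean above 12 on liver arrays, 60 on heart, 27 on kidney and 35 on muscle arrays, where the highest value of any gene was 14.73, 14.89, 13.72 and 14.14. Members also varied little within a group, with a median SD of 0.0917 in liver against 0.1997 over all genes.

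WY14643 raised a large part of the chain in liver, by small amounts. Averaged over the 3 days, 28 of the 72 members were higher than vehicle and 3 were lower (limma, adjusted p under 0.05 over all 18193 genes), where 5.51% of all genes were higher, 5.72% lower and 11.2% called either way. The median change of the 72 members was 0.0535 on the log2 scale against -0.010 over all genes, and 58 of the 72 values were above 0. Rises ran from 3.1% for Ndufb11 to 48.8% for Cox7a1. The members were brighter and less variable than most genes: among genes above the 40th percentile of intensity, 33 of 67 members were called, 31 of them higher, against 19.1% of all such genes. With each array centred on its own median, 12 members were called, 10 higher and 2 lower, with 9.96% of all genes, and the median change was 0.0435. Without day 8, 15 members were called, with 8.1% of all genes.

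**Figure D1:**
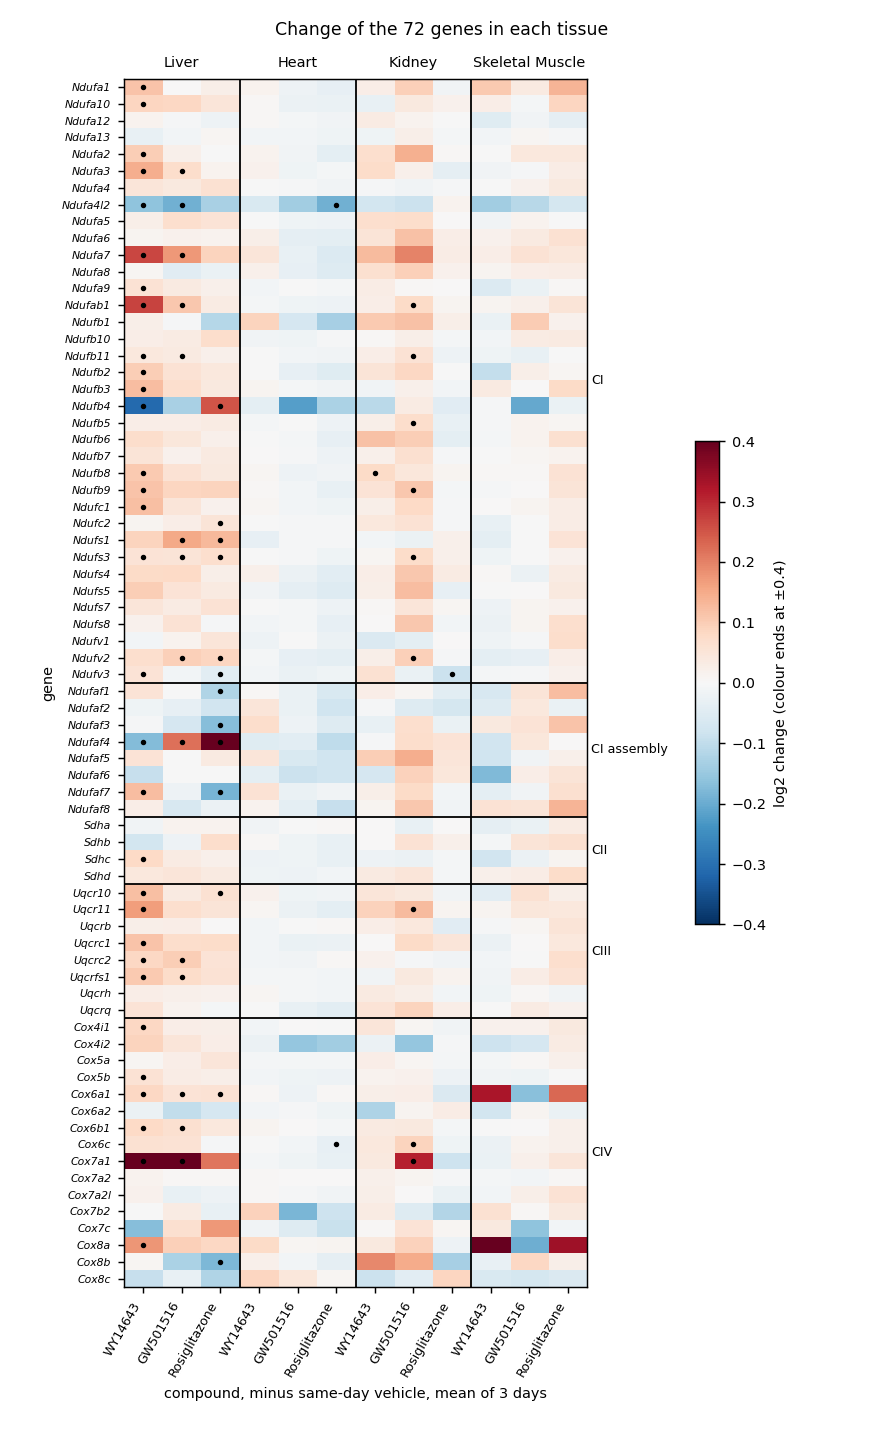
Change of each of the 72 members (rows, by complex) in the 12 comparisons of a compound with same-day vehicle (columns, by tissue), as log2 differences averaged over 3 days (colour, ending at ±0.4), with a dot at an adjusted p under 0.05. The WY14643 column of liver holds 28 higher and 3 lower calls, and no muscle column holds any.

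By complex, calls with WY14643 in liver were 15 higher and 2 lower of 36 in complex I, 1 higher of 4 in complex II, 5 higher of 8 in complex III and 6 higher of 16 in complex IV. The median changes were 0.055, 0.014, 0.093 and 0.038, and the 8 assembly factors had 1 higher and 1 lower, with a median of 0.010. No difference between complexes was tested.

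**Figure D2:**
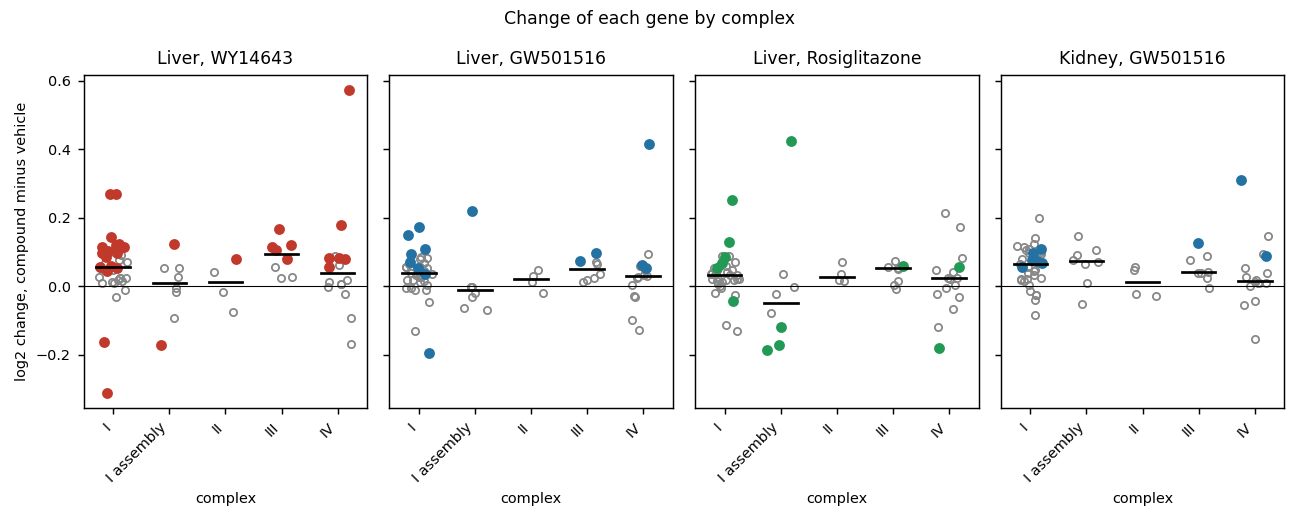
Log2 change of each member (vertical axis) in liver for the 3 compounds and in kidney for GW501516, grouped by complex, with one point per gene, filled where called, and a bar at each group's median. With WY14643 the complex III genes have a median of 0.093 and the 4 complex II genes one of 0.014.

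In complex I, Ndufab1, the mitochondrial acyl carrier protein that also serves mitochondrial fatty acid synthesis, was 12.36 to 12.66 on the 30 vehicle livers (median 12.47) and 12.41 to 13.08 on the 15 WY14643 livers (median 12.73). On day 8 the 5 WY14643 livers were at 13.08, 12.91, 12.86, 12.87 and 12.92, and the day-8 vehicle livers reached at most 12.61. The groups overlapped, but 12 of 15 treated livers were above all 30 vehicle livers. The change was 0.27 ± 0.026 (SE, adjusted p = 5.43e-13), or 20.6%. The gene has 4 other probe sets, of which the bright one, at a mean level of 12.03, gave 0.32 (adjusted p = 8.44e-12), and 3 dim ones, at 6.20 to 7.14, gave 0.02, 0.01 and -0.15 and were not called. With the mean of all its probe sets as its level, Ndufab1 was at 0.09 and was not called. Ndufa7, an accessory subunit of the matrix arm, rose by 0.27 ± 0.036 (adjusted p = 4.56e-08), from 11.47 to 11.97 in vehicle livers to a median of 11.96 (11.74 to 12.14). Every one of the 15 treated livers was above its same-day vehicle mean, and 7 were above all vehicle livers. Ndufa3, an accessory subunit of the membrane arm, rose by 0.15 ± 0.017 (adjusted p = 1.25e-09), from 12.93 to 13.22 in vehicle livers to 13.15 to 13.31 in treated ones.

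The other 12 complex I genes that rose were Ndufa1, Ndufa2, Ndufa9, Ndufa10, Ndufb2, Ndufb3, Ndufb8, Ndufb9, Ndufb11, Ndufc1, Ndufs3 and Ndufv3, by 0.04 to 0.12. Centring each array on its median ended the calls of these 12 genes except Ndufa2 and Ndufc1. The Ndufa10 call was also lost without any one of 29 of the 45 arrays, and the Ndufa9 call without any one of 22. All but Ndufs3, a core subunit of the matrix arm, are accessory subunits, which surround the catalytic core. Of the core subunits that carry flavin and iron-sulfur clusters, Ndufs1 was at 0.09 (adjusted p = 0.0518), Ndufv2 at 0.07, Ndufs7 at 0.05, Ndufs8 at 0.02 and Ndufv1 at -0.01, none of them called. The 2 genes counted in complex I that fell were Ndufa4l2, the hypoxia-inducible relative of Ndufa4, by 0.16 ± 0.054 (adjusted p = 0.0373), and Ndufb4, a membrane-arm subunit, by 0.31 ± 0.086 (adjusted p = 0.00957). The Ndufa4l2 call was lost without any one of 13 of the 45 arrays compared, and with array weights, clock components as covariates, a replicate block, day 8 left out or the arrays that stand apart left out, at -0.14 to -0.18. The Ndufb4 probe set was dim, at 3.95 to 4.98 in vehicle livers and 3.84 to 4.49 in treated ones. Ndufa4 itself, now assigned to complex IV but counted here in complex I, was at 0.05 and was not called.

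In complex II, which oxidises succinate and belongs to the citric acid cycle as well, only the membrane anchor Sdhc was called, at 0.08 ± 0.022 (adjusted p = 0.00905) with 13 of 15 livers above their vehicle mean. Its levels were 12.04 to 12.44 in vehicle and 12.20 to 12.42 in WY14643 livers, a complete overlap in range. The Sdhc call was lost with each array centred on its median and without day 8. The flavoprotein Sdha was at -0.02, the iron-sulfur subunit Sdhb at -0.07 (adjusted p = 0.206) and the second anchor Sdhd at 0.04.

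In complex III, Uqcr11, a small accessory subunit, rose by 0.17 ± 0.029 (adjusted p = 2.29e-05), from 12.16 to 12.63 (median 12.40) to 12.20 to 12.71 (median 12.59). Uqcrfs1, the Rieske iron-sulfur protein that takes electrons from ubiquinol, rose by 0.11 ± 0.021 (adjusted p = 0.000184), from a median of 12.60 to one of 12.70, with 8 of 15 livers above all vehicle livers. The small subunit Uqcr10 rose by 0.12 ± 0.021 (adjusted p = 1.86e-05), and the core proteins Uqcrc1 and Uqcrc2 by 0.12 and 0.08. Centring each array on its median ended the calls of Uqcrfs1, Uqcrc1 and Uqcrc2, as did leaving out day 8. The Uqcrc1 call was also lost without any one of 19 of the 45 arrays. Uqcrb, Uqcrh and Uqcrq, at 0.02, 0.03 and 0.06, were not called.

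In complex IV the largest change was that of Cox7a1. Its 30 vehicle livers ran from 6.16 to 7.36 (median 6.75). Cox7a1 was below the median vehicle level of all genes in liver, 7.37. It was also the member most variable within liver groups, with an SD of 0.32, and was read by 1 probe set only. The WY14643 livers were at 7.63, 6.20, 7.37, 7.40 and 6.93 on day 4, at 7.58, 7.59, 7.93, 7.78 and 7.03 on day 8, and at 7.14, 7.49, 7.01, 7.16 and 7.22 on day 15. All but one, a day-4 liver at 6.20, were above their same-day vehicle mean, and 8 were above every vehicle liver. The change was 0.57 ± 0.100 (adjusted p = 1.63e-05). Cox8a, the form of the smallest subunit found in most tissues, rose by 0.18 ± 0.038 (adjusted p = 0.000445), from a median of 12.18 (11.86 to 12.43) to one of 12.37 (11.98 to 12.57). Cox4i1, a regulatory subunit, rose by 0.08 ± 0.015 (adjusted p = 3.41e-05), with all 15 livers above their vehicle mean.

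Cox6a1, Cox6b1 and Cox5b rose by 0.08, 0.08 and 0.06. Centring each array on its median ended these calls and that of Cox4i1. The other heart and muscle forms were not called: Cox6a2 was at -0.02 and Cox8b at 0.01. Cox7a2, the partner isoform of Cox7a1, was at 0.01. The mean of 6 cardiomyocyte genes was between 3.68 and 4.34 on every liver array, and none of these 6 or of 7 fast fibre genes was called with any compound. Of 6 slow fibre genes, 0 were called with WY14643, 1 was lower with GW501516 and 1 was higher with rosiglitazone. With WY14643, 3 of 7 hepatocyte genes were lower (median of the 7 -0.025), 1 of 3 brown adipocyte genes was higher and 1 lower, and 1 of 4 exocrine pancreas genes was lower. Of 5 neutrophil markers, 4 were higher with WY14643, and their mean ranged from 5.61 to 9.16 (median 6.30) against 5.45 to 6.82 in vehicle (median 6.06). The highest was replicate 2 of day 4, the liver with Cox7a1 at 6.20. Without it and the other liver that stood apart, replicate 5 of day 4, 34 members were called, 33 higher and 1 lower. With those 2 livers left out, 9.57% of all genes were called, and Cox7a1 was at 0.69. The part of these other markers in the WY14643 values was not tested.

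**Figure D3:**
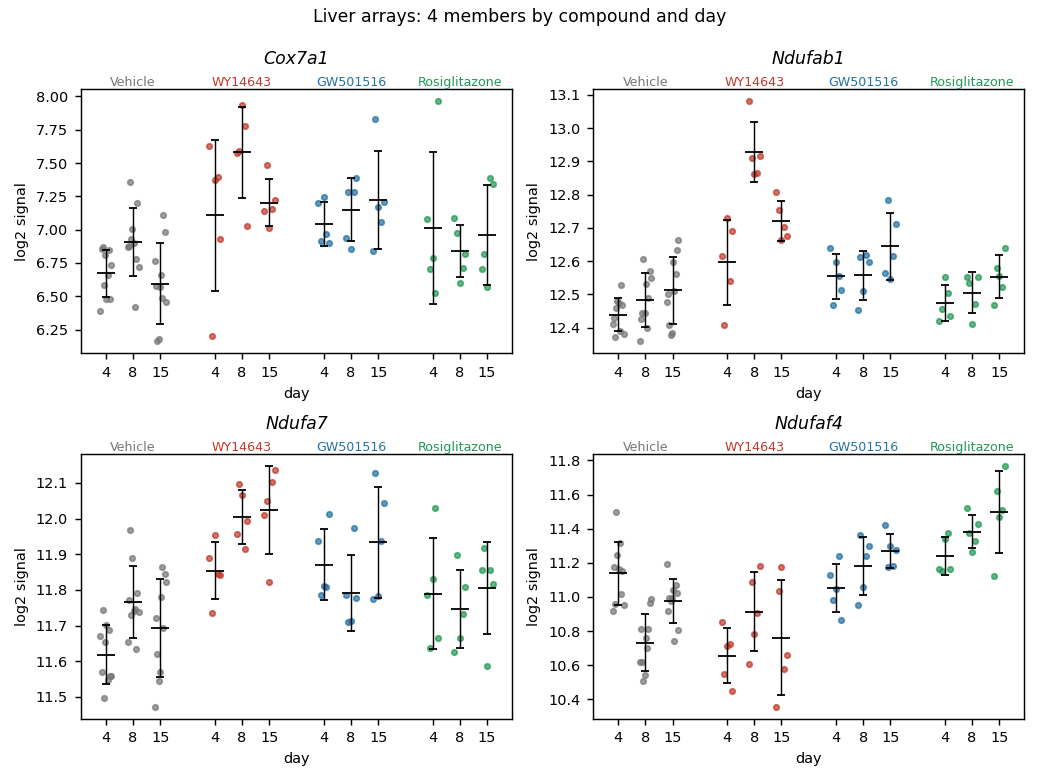
Log2 level of Cox7a1, Ndufab1, Ndufa7 and Ndufaf4 on every liver array (points), by compound and day, with the mean and SD of each group (n = 10 for vehicle, n = 5 for a compound). For Ndufab1, 12 of the 15 WY14643 livers lie above all 30 vehicle livers, and for Ndufaf4 all 5 rosiglitazone livers of day 8 lie above the 10 vehicle livers of that day.

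With GW501516, 13 liver members were higher and 1 was lower (6.86% and 7.06% of all genes, and 13.9% either way), with a median of 0.0325 against -0.0079 over all genes. The 14 calls are close to the background share, and among genes above the 40th percentile 15 of 67 members were called against 24.2% of genes. By complex, 7 of the higher calls were in complex I, 2 in complex III and 3 in complex IV, with 1 assembly factor. Cox7a1 was again the largest, at 6.84 to 7.83 (median 7.17), a change of 0.41 ± 0.100 (adjusted p = 0.00178) with 14 of 15 livers above vehicle. Ndufa7 changed by 0.17 ± 0.036 (adjusted p = 0.0003) and Ndufab1 by 0.11 ± 0.026 (adjusted p = 0.00168). Ndufs1, the largest iron-sulfur subunit of complex I, rose from 11.48 to 11.90 in vehicle to 11.74 to 12.07, by 0.15 ± 0.032 (adjusted p = 0.0003), in all 15 livers. Ndufa4l2 fell by 0.19 ± 0.054 (adjusted p = 0.00814). The same vehicle livers served all 3 compounds, so these comparisons share their controls.

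Rosiglitazone livers had 8 members higher and 5 lower (7.48% and 8.71% of all genes, and 16.2% either way), with a median of 0.025 against -0.0243. The 13 calls either way are close to the background share. With each array centred on its median, 13 were higher and 2 were lower, with 14.9% of all genes called. The assembly factors had most of the falls: Ndufaf7, a mitochondrial methyltransferase, fell by 0.19 ± 0.042 (adjusted p = 0.000673), with 1 of 15 livers above vehicle. Ndufaf3, which acts with Ndufaf4, fell by 0.17 ± 0.055 (adjusted p = 0.0211), and Ndufaf1, which acts early in assembly, by 0.12 ± 0.036 (adjusted p = 0.0141) with no liver above vehicle. Cox8b, near the low end of the scale in liver, fell by 0.18 ± 0.064 (adjusted p = 0.0425), and Ndufv3 by 0.04. Centring each array on its median ended the calls of Ndufaf1, Cox8b and Ndufv3. The Cox8b call was also lost without any one of 24 of the 45 arrays. Ndufs1 rose by 0.13 ± 0.032 (adjusted p = 0.00169) in all 15 livers, and Cox7a1 was at 0.21 (adjusted p = 0.144). Ndufb4, dim as above, rose by 0.25 ± 0.086 (adjusted p = 0.0335).

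Ndufaf4, an assembly factor, had calls in both directions in liver. The vehicle livers ran from 10.92 to 11.50 on day 4 (median 11.16), from 10.51 to 10.99 on day 8 (median 10.73) and from 10.74 to 11.19 on day 15 (median 10.99). The rosiglitazone livers were at 11.52, 11.38, 11.26, 11.33 and 11.42 on day 8 and at 11.12, 11.62, 11.47, 11.51 and 11.77 on day 15. All 5 of day 8 were above the 10 vehicle livers of that day. The change over the 3 days was 0.42 ± 0.056 (adjusted p = 2.13e-08), with 15 of 15 livers above vehicle. GW501516 raised it by 0.22 ± 0.056 (adjusted p = 0.00336), and with WY14643 it fell by 0.17 ± 0.056 (adjusted p = 0.0315), with 6 of 15 livers above vehicle. That last call was lost without any one of 7 of the 45 arrays, with each array centred on its median (-0.18), with array weights (-0.13), with a replicate block (-0.15) and without the arrays that stand apart (-0.14). A second Ndufaf4 probe set gave 0.47 for rosiglitazone, 0.21 for GW501516 and -0.12 for WY14643, the last not called (adjusted p = 0.162).

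Clock genes moved in the same comparisons. Of 16 clock genes, 8 were higher and 4 were lower in liver with GW501516, and likewise with rosiglitazone, against 1 higher and 1 lower with WY14643. The first principal component of these genes held 60.9% of their variance in liver and had a median of 0.433 in vehicle, 0.54 with WY14643, -0.686 with GW501516 and -0.764 with rosiglitazone. With 2 such components as covariates, no member was called in liver for GW501516 or rosiglitazone, but the calls over all genes also went down, from 13.9% to 2.71% and from 16.2% to 0.181%. The Ndufaf4 value was then -0.11 for GW501516 and -0.02 for rosiglitazone. For WY14643, 34 members were called, with 12% of all genes. Clock genes themselves changed with GW501516 and rosiglitazone, so this fit cannot separate a clock part from the change with the compound. The part of the clock genes in the results for GW501516 and rosiglitazone was not tested.

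On single days, WY14643 gave 4 liver members higher and 3 lower on day 4 (3.23% and 3.22% of genes), 17 higher and 0 lower on day 8 (3.02% and 3.3%) and 6 higher and 0 lower on day 15 (1.68% and 1.19%). Ndufab1, Ndufa7 and Ndufa3 were called on each of the 3 days, and on day 8 Ndufab1 changed by 0.45 (adjusted p = 1.05e-11). The 3 falls on day 4 were Ndufaf4 by 0.48, Cox7c by 0.35 and Sdhb by 0.21. The changes on day 15 and on day 4 differed for no member with any compound in any tissue (limma, with 0.753% of genes called for WY14643, 0.0% for GW501516 and 0.132% for rosiglitazone on liver arrays). In the same order, 0.275%, 0.0165% and 0.0% of genes were called on heart arrays, 0.022%, 0.011% and 0.0% on kidney arrays and 0.0%, 0.0% and 0.0055% on muscle arrays. At an unadjusted p under 0.05, 1, 1 and 2 members differed in these 3 liver comparisons, and at most 8 in another tissue, with WY14643 in heart.

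GW501516 livers had 4 members higher and 0 lower on day 4 (0.824% and 0.522% of genes), 1 and 2 on day 8 (3.85% and 4.99%) and 5 and 0 on day 15 (2.58% and 1.84%). Rosiglitazone livers had no call on day 4 (1.23% of genes either way), 1 higher and 4 lower on day 8 (5.33% and 7.45%) and 1 higher and 0 lower on day 15 (2.86% and 2.48%). Ndufaf4 was the rise on both days, at 0.65 and 0.52.

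The compounds were then set against each other at the same dose and days. WY14643 livers had 6 members higher and 1 lower than GW501516 livers (2.27% and 2.28% of genes), namely Ndufab1 (0.16 ± 0.030, adjusted p = 0.000225), Uqcr10, Ndufa2, Ndufa3, Ndufv3 and Cox4i1 on the higher side and Ndufaf4 (-0.39 ± 0.064, adjusted p = 3.6e-05) on the lower. Against rosiglitazone, WY14643 livers had 12 members higher and 4 lower (9.44% and 8.15% of genes). The higher ones included Cox7a1 (0.36 ± 0.115, adjusted p = 0.0202), Ndufab1 (0.24 ± 0.030, adjusted p = 6.38e-09), Ndufaf7 (0.31, adjusted p = 1.29e-06) and Ndufa3 (0.13, adjusted p = 8.64e-07). The lower ones were Ndufaf4 (-0.60 ± 0.064, adjusted p = 6.59e-11), Ndufb4 (-0.56), Cox7c (-0.34, adjusted p = 0.000477) and Sdhb (-0.15, adjusted p = 0.00857). These 16 calls between WY14643 and rosiglitazone are close to the background share, 17.6% of genes either way. With dim genes left out, 18 of 67 members were called in this comparison, against 30% of genes. GW501516 and rosiglitazone livers differed for 2 members (3.59% of genes either way), Ndufaf7 at 0.17 and Ndufb4 at -0.38. The 7 calls between WY14643 and GW501516 became 4 without replicate 1 of GW501516 on day 15 and 11 without replicate 3 of WY14643 on day 15, and the 2 between GW501516 and rosiglitazone became 1 without any one of 10 of the 30 arrays.

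In kidney, GW501516 gave 9 members higher and 0 lower (3.94% of all genes higher, 6.79% called either way), with a median of 0.0512 against 0.007 over all genes, but the count rested on single arrays. It was 5 without replicate 3 of GW501516 on day 15, 3 without replicate 5 of that day, 3 without replicate 1 of day 4 and 2 without replicate 1 of day 8. No share of all genes is given for fits without a single array, so these counts have no background beside them. Replicate 1 of day 8 had a mean over the 72 members of 11.06, where the other 4 arrays of its group were at 10.61 to 10.68. Its endothelial markers averaged 6.25 against 7.97 to 8.12 in the other 4, and its proximal tubule markers 11.48 against 12.32 to 12.58. The 3′ Gapdh control probe set exceeded the 5′ one by 2.70 on the log2 scale on this array, by 0.75 to 0.80 on the other 4 and by 0.72 to 0.90 on vehicle kidneys. This difference depends on how intact the RNA was as well as on how evenly it was copied. Cox7a1 stood at 10.12 on this array and at 7.82, 7.84, 7.84 and 7.78 on the others of the group, and from 7.23 to 7.83 on the day-8 vehicle arrays. Without this array, 1 member was higher, Ndufb9 (0.10, adjusted p = 0.0362), an accessory subunit of complex I, and 1 was lower, Cox4i2. The median was then 0.0325, Cox7a1 went from 0.31 ± 0.097 (adjusted p = 0.0379) to 0.16 (adjusted p = 0.0834), and Uqcr11 from 0.13 ± 0.037 (adjusted p = 0.0246) to 0.09 (adjusted p = 0.0741). With replicate 2 of WY14643 on day 4, the other kidney that stood apart, left out as well, a choice made after seeing the data, 6 members were higher and 1 was lower (8.19% of genes either way), with the median again 0.0325. Cox7a1 at 0.16, Uqcr11 at 0.09 and Ndufb9 were then called higher and Cox4i2 lower, at -0.23, and Ndufv2 at 0.08 was not called. The 9 genes called with all arrays were Cox7a1, Uqcr11, Ndufb9, Ndufv2, Cox6c, Ndufab1, Ndufs3, Ndufb5 and Ndufb11, at 0.06 to 0.31. Over all arrays, 1 of 7 fast fibre, 1 of 6 slow fibre and 1 of 6 cardiomyocyte genes were higher with GW501516 in kidney, and 1 of 3 erythroid genes was lower. The part of these markers, and of the Gapdh difference, in the values of the members was not tested.

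**Figure D4:**
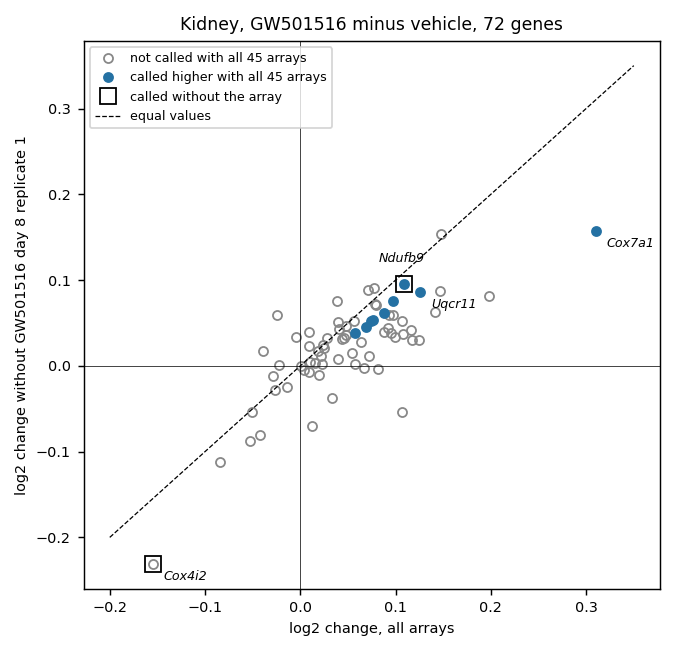
Log2 change of each of the 72 members with GW501516 in kidney with all arrays (horizontal axis) and without replicate 1 of day 8 (vertical axis). Filled points are the 9 members called with all arrays, and squares mark the 2 called without that array. Points under the dashed line of equal values had a lower value without it, as Cox7a1 did (0.31 and 0.16) and Cox4i2 did (-0.15 and -0.23).

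The other kidney comparisons with vehicle gave 1 member each, which is close to the share of all genes called. WY14643 raised Ndufb8, a membrane-arm accessory subunit, by 0.08 ± 0.021 (adjusted p = 0.0302), with 1.74% of all genes called. The 30 vehicle kidneys were at 11.94 to 12.22 (median 12.04) and the 15 treated ones had a median of 12.10 and the same highest value, 12.22, so that the ranges overlapped. The call was lost without any one of 5 WY14643 kidneys (replicate 4 of day 4, 1 and 2 of day 8, and 4 and 5 of day 15), and 2 members were called without replicate 2 of day 4. With rosiglitazone, Ndufv3, an accessory subunit of the NADH-binding module, fell by 0.09 ± 0.019 (adjusted p = 0.006), with 1.52% of genes called. The vehicle kidneys were at 12.36 to 12.57 and the treated ones at 12.28 to 12.49, and 1 of 15 was above its vehicle mean. Ndufv3 also differed between WY14643 and rosiglitazone (0.15, adjusted p = 4.38e-06, the 1 member called, with 1.95% of genes) and between WY14643 and GW501516 (0.09, the 1 member called, with 1.34%). Both counts are close to these shares. Cox6c, Ndufb5 and Ndufb11 were higher with GW501516 than with rosiglitazone, by 0.10, 0.10 and 0.08 (1.12% of genes called). Leaving out single arrays moved these 3 calls to between 1 and 5. The Ndufv3 call against GW501516 was lost without replicate 5 of GW501516 or replicate 1 of WY14643 on day 15, and the comparison of WY14643 with rosiglitazone gave 2 calls without any one of 4 arrays.

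The heart, where the members stood highest, showed few differences. WY14643 and GW501516 changed no member in limma's test, where 1.44% and 4.17% of genes were called, and 1 and 5 members had an unadjusted p under 0.05, all lower than vehicle. The median changes were -0.0006 and -0.0165, against 0.006 and -0.0094 over all genes. Rosiglitazone gave 2 falls and no rise (7.51% of genes called either way), Cox6c, a small complex IV subunit, by 0.03 ± 0.009 (adjusted p = 0.0151) and Ndufa4l2 by 0.19 ± 0.054 (adjusted p = 0.0161). Ndufa4l2 was at 9.50 to 10.05 in vehicle hearts (median 9.85) and at 8.85 to 9.88 with rosiglitazone (median 9.67), and 3 of 15 were above their vehicle mean. In one rosiglitazone heart, replicate 1 of day 4, Ucp1 was at 13.64 against 5.23 to 5.86 in the other 4, adipocyte markers averaged 11.02 against 5.11 to 6.42, and the members averaged 12.72 against 12.99 to 13.06. Over all rosiglitazone hearts, 2 of 3 erythroid, 2 of 4 fibroblast and 1 of 5 neutrophil genes were lower than vehicle, and their part in the values of the members was not tested. Without replicate 1 of day 4, the Ndufa4l2 call was lost and 1 member was called, Cox6c. Without replicate 2 of the same group 4 members were called. Neither Cox6c nor Ndufa4l2 was called with each array centred on its median (6.21% of genes called) or with a replicate block (5.47%). Cox7a1 was between -0.01 and -0.03 with the 3 compounds. No pair of compounds differed for any member in heart for WY14643 against GW501516 (3.03% of genes called), WY14643 against rosiglitazone (6.12%) or GW501516 against rosiglitazone (0.044%), where 7, 15 and 1 members had an unadjusted p under 0.05. For WY14643 against rosiglitazone, 5 members were called without replicate 2 of rosiglitazone on day 4, and between 1 and 4 without any one of 7 other arrays.

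In skeletal muscle no member was called with any compound (limma, with 0.104%, 0.857% and 1.65% of genes called for WY14643, GW501516 and rosiglitazone), and 4, 0 and 6 members had an unadjusted p under 0.05. Between compounds no member was called either (0.572%, 0.0385% and 0.066% of genes), and 5, 6 and 0 members had an unadjusted p under 0.05. The median changes were -0.0106, 0.0075 and 0.0319. The members most variable in muscle were the liver-type isoforms Cox8a and Cox6a1. Cox8a ran from 8.48 to 11.21 in vehicle muscles (median 9.14), from 8.43 to 11.21 with WY14643 (median 9.90), from 8.67 to 10.35 with GW501516 (median 9.08) and from 8.60 to 11.23 with rosiglitazone (median 10.08). Its changes were 0.47 ± 0.259 (adjusted p = 0.476), -0.20 (adjusted p = 0.906) and 0.34 (adjusted p = 0.687), and those of Cox6a1 were 0.33 ± 0.211, -0.17 and 0.23, none called. The muscle forms varied less, with Cox6a2 at 12.48 to 13.01 and Cox7a1 at 11.24 to 11.98 in vehicle muscles.

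The brown adipocyte markers moved with these values. Their median was 7.04 in vehicle, 9.61 with WY14643, 5.66 with GW501516 and 9.49 with rosiglitazone muscles, the same order as the Cox8a medians except that WY14643 and rosiglitazone changed places. Vehicle muscles were split at a marker mean of 5, a value chosen after the markers were seen, since 11 lay close together below it and 19 were spread above it. Over the 19, Cox8a followed the marker mean with Pearson's r = 0.893 and Spearman's rho = 0.956, and Cox6a1 with r = 0.908 and rho = 0.944. Without the 2 arrays farthest from the median, r was 0.901 and 0.923. Over the 11, r was 0.625 for Cox8a and -0.084 for Cox6a1. For the other 70 members, r over the 19 ran from -0.549 for Uqcrb to 0.554 for Cox7c. These are descriptions with no test, since both genes were picked as the most variable of the 72 and the split was set on the same arrays.

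**Figure D5:**
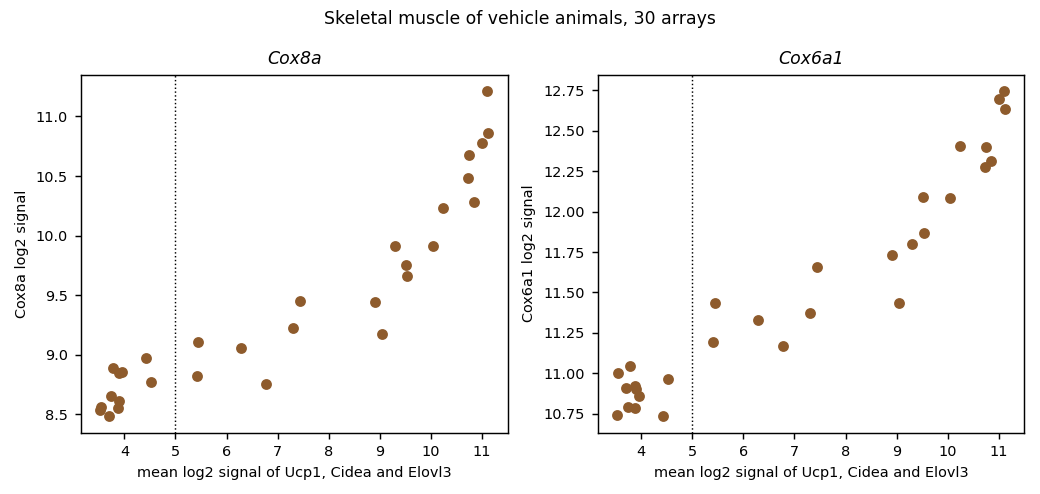
Log2 level of Cox8a and of Cox6a1 (vertical axes) against the mean of 3 brown adipocyte markers (horizontal axis, log2) on the 30 vehicle muscle arrays, with a dotted line at 5. Over the 19 arrays with a marker mean of 5 or higher, r was 0.893 for Cox8a and 0.908 for Cox6a1.

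Whether liver differed from the other tissues was tested on the difference between the tissues of each mouse, matched by the mouse number in the labels and not by the replicate number, so that a mouse is named here by its liver. The WY14643 change was larger in liver than in heart for 14 members and smaller for 0 (6.52% of genes called either way, 3.26% higher). Cox7a1 differed by 0.58 ± 0.104 and Ndufab1 by 0.28 ± 0.031 (adjusted p = 4.38e-10), and all 4 complexes were represented, with Sdhc at 0.10, Uqcr11 at 0.16 and Cox4i1 at 0.09. Against skeletal muscle 7 members differed (3.52%), with Cox7a1 at 0.60, Ndufab1 at 0.26 and Ndufa7 at 0.24. Against kidney 4 differed (4.69%), Cox7a1 at 0.53, Ndufab1 at 0.24, Ndufb3 at 0.14 and Uqcrfs1 at 0.12. Cox7a1 and Ndufab1 were thus called in all 3 comparisons. The 7 calls against muscle became 4 without the mouse of WY14643 liver replicate 3 of day 4, 1 of day 8 or 2 of day 15.

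For GW501516, 9 members differed between liver and heart (10.2% of genes called), Cox7a1 by 0.43 and Ndufaf4 by 0.26 among them. Against muscle 1 differed (4.26%), Cox7a1 at 0.39, and against kidney 1 (8.18%), Ndufa8 at -0.14. The call against muscle was lost without the mouse of GW501516 liver replicate 1 of day 4 or 2 of day 15, and 3 were made without the mouse of vehicle liver replicate 8 of day 4. The count against kidney moved to between 0 and 4 without any one of 14 of the 45 mice. For rosiglitazone, 9 members were higher and 1 lower in liver against heart (12.5%), 1 and 1 against kidney (7.22%) and 1 and 3 against muscle (6.08%). Ndufaf4 was the higher one each time or among them, by 0.52 ± 0.070 (adjusted p = 8.04e-08), 0.37 and 0.42, and Ndufaf7 was lower each time, by 0.17, 0.18 and 0.25. The 2 calls against kidney became 1 without the mouse of rosiglitazone liver replicate 2 of day 4 or 1 of day 8.

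Many members had further probe sets, which read the same RNA. The members called with WY14643 in liver had 33 further probe sets from 17 genes, of which 19 had the same call, 0 had the opposite call and 29 had the same sign. For GW501516, 9 of 18 had the same call and all 18 the same sign, for rosiglitazone 3 of 9 and 8 of 9, and in kidney with GW501516 5 of 12 and 8 of 12.

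Genes next to the chain in liver are read against the 11.2%, 13.9% and 16.2% of all genes called with WY14643, GW501516 and rosiglitazone. Of 18 ATP synthase (complex V) genes, 5 were higher with WY14643, 3 with GW501516 and 2 with rosiglitazone, and none was lower, with medians of 0.047, 0.031 and 0.042, and the counts for GW501516 and rosiglitazone are near those shares. Of 17 electron carrier genes, which include coenzyme Q synthesis and the electron transfer flavoproteins, 9 were higher with WY14643 (median 0.100) and 8 were higher and 1 lower with GW501516 (median 0.098). With rosiglitazone 3 were higher, Coq10b (0.34), a coenzyme Q binding protein, and Cycs (0.11), cytochrome c, among them, and 1 was lower, Pdss2 (-0.17), which makes the coenzyme Q side chain (median 0.009). Among them were Coq4, at 0.30 with WY14643 (adjusted p = 6.69e-07), and Etfdh, which passes electrons from fatty acid oxidation to ubiquinone, at 0.21 with GW501516. Of 33 assembly factors outside the symbol pattern, 6 were higher and 0 lower with WY14643, 5 and 2 with GW501516, and 6 and 1 with rosiglitazone. Cox17, the copper chaperone of complex IV, was at 0.21 (adjusted p = 1.58e-10). With GW501516 and rosiglitazone, Coa6 was higher, at 0.34 and 0.47, and Sco2, another copper chaperone, fell by 0.44 and 0.51.

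Of the 12 core genes of mitochondrial fatty acid oxidation, 11 were higher with WY14643 and 11 with GW501516, at medians of 0.326 and 0.300, and with rosiglitazone 4 of 12, at 0.070. Eci1, an isomerase for unsaturated fatty acids, was at 0.72 and Acadm, the medium-chain acyl-CoA dehydrogenase, at 0.59 with WY14643. Of the 12 other citric acid cycle genes, 4 were higher and 1 lower with WY14643, 6 and 0 with GW501516, and 3 and 1 with rosiglitazone, and Idh3a, a subunit of NAD-dependent isocitrate dehydrogenase, was at 0.41 with GW501516 and 0.47 with rosiglitazone. Of 12 regulators of mitochondrial gene expression, 0 were called with WY14643 in limma's test, 1 was lower with GW501516, Gabpb1, a subunit of GABP, by 0.17 (adjusted p = 0.0118), and 5 were higher and 1 lower with rosiglitazone, Esrra at 0.34 and Nrf1 at 0.21 among the higher.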

How the data were processed

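Total RNA was amplified with the NuGEN WT Ovation system and hybridised to Affymetrix mouse expression arrays, per the labels' protocols. The authors deposited log2 values from RMA in Partek, per the submitters' processing notes, with no version given. Of 45101 probe sets, 34945 named 1 gene, 932 several and 9160 none, by the platform's annotation, and the highest-mean probe set stood for each gene. Whether tissues were normalised together is not given in the sources used here. In each tissue, limma 3.58.1 (R 4.3.3) fitted 12 group means over 75 arrays (63 residual degrees of freedom, trended variance prior). Each compound minus same-day vehicle was averaged over 3 days, with Benjamini-Hochberg adjustment over 18193 genes. Replicates are separately numbered mice. Precision is limited by the number of arrays. No gene below any level was left out. Genes were named by size among those called (up to 4 a direction, and 3 a context list), as the largest change of a complex, and as isoform pairs, and the remaining ones were named after their values were seen. Members and lists were chosen with earlier results of these data known. The model was tested on simulated data. Alternatives were other scalings, filters and probe-set rules, array weights, covariates, a replicate block, and arrays or days left out.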

Additional observations from a re-analysis of the deposited data

Results flagged for a closer look

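The mean over the 72 members in each of the 48 groups, and the levels of the lead genes in the liver groups, were screened for an array lying apart from the rest of its group. Of these 96 checks, 10 found one, where chance gives about 1 in 20. In heart, the member mean was 12.959 in GW501516 day 4 replicate 2, 12.722 in rosiglitazone day 4 replicate 1 (the heart with high Ucp1), 13.063 in vehicle day 4 replicate 8, 13.108 in vehicle day 8 replicate 5 and 13.063 in WY14643 day 8 replicate 2. In kidney it was 11.063 in GW501516 day 8 replicate 1 and 10.540 in WY14643 day 4 replicate 2, and in muscle 10.946 in WY14643 day 4 replicate 2. In liver, Ndufab1 was 13.081 in WY14643 day 8 replicate 1, where the other 4 livers were at 12.862 to 12.917, and Ndufa7 was 11.972 in GW501516 day 8 replicate 4, where the other 4 were at 11.711 to 11.787.

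Differences between tissues in the change with a compound were found for 14, 9 and 10 members between liver and heart with WY14643, GW501516 and rosiglitazone. They were found for 4, 1 and 2 between liver and kidney, and for 7, 1 and 4 between liver and skeletal muscle, each by the limma test of the difference itself. In the same order, 6.52%, 10.2% and 12.5% of all genes were called against heart, 4.69%, 8.18% and 7.22% against kidney, and 3.52%, 4.26% and 6.08% against muscle. Only the WY14643 counts against heart and muscle, 19.4% and 9.72% of the members, stood well above these shares.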

How the results depend on the processing

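Counts are members called, and percentages in brackets are the share of all genes called in the same fit. With each array centred on its median, the liver gave 12 instead of 31 for WY14643 (9.96%), 8 instead of 14 for GW501516 (12.5%) and 15 instead of 13 for rosiglitazone (14.9%). Heart with rosiglitazone then gave 0 instead of 2 (6.21%), and kidney gave 0 instead of 1 for WY14643 (1.81%) and 1 instead of 9 for GW501516 (7.21%). With clock components as covariates, liver gave 0 for GW501516 (2.71%) and 0 for rosiglitazone (0.181%), and heart 1 for GW501516 (1.21%) and 0 for rosiglitazone (1.2%). Kidney with these covariates gave 2 for WY14643 (1.37%), 0 for GW501516 (3.95%) and 0 for rosiglitazone (0.781%). The Ndufaf4 change in liver was then -0.11 with GW501516 and -0.016 with rosiglitazone. Since the clock genes themselves changed with both compounds in liver, that fit cannot separate them from the change with the compound. Array weights gave 21 for rosiglitazone in liver (19.4%), 2 for WY14643 in heart (3.74%) and 7 for WY14643 in kidney (3.48%). Without day 8, the counts were 15 for WY14643 in liver (8.1%) and 1 for rosiglitazone in heart (1.15%). In kidney they were 0 for WY14643 (1.45%), 0 for GW501516 (4.09%) and 0 for rosiglitazone (0.302%). The mean of all probe sets gave 2 for GW501516 in heart, and leaving out dim genes gave 2 for WY14643 against rosiglitazone in heart and 2 in kidney, and 3 for GW501516 between liver and kidney.

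Among the alternatives chosen after seeing the data, no intensity trend gave 1 for rosiglitazone in heart (7.41%) and 0 for WY14643 in kidney (1.62%). The brown adipocyte marker mean as a covariate gave 6 for rosiglitazone in liver (14.6%) and 2 for GW501516 in heart (5.25%). In liver 1 of these 3 markers was itself lower with rosiglitazone. That fit therefore cannot separate adipocyte content from the change with the compound. Leaving out the arrays that stand apart gave 1 for GW501516 (6.37%), 1 for rosiglitazone (8.76%) and 1 for WY14643 against rosiglitazone (9.09%) in heart. In kidney it gave 5 for WY14643 (2.32%) and 3 for WY14643 against rosiglitazone (3.75%). For the WY14643 change it gave 24 between liver and heart (6.03%) and 2 between liver and muscle (1.24%). The causes were not tested. Skeletal muscle stayed at 0 for each compound against vehicle in all settings run.

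Same-numbered arrays of different groups did not deviate together (median r = 0.00212 in liver, -0.00492 in heart, 0.00303 in kidney and 0.0467 in muscle), so the numbers do not pair the mice. A replicate block gave 26 (8.19%), 12 (12.2%) and 15 (14.6%) in liver for WY14643, GW501516 and rosiglitazone. In heart it gave 0 for rosiglitazone (5.47%) and 1 for WY14643 against rosiglitazone (6.01%), and in kidney 0 for WY14643 (1.56%) and 0 for GW501516 (2.25%). Between liver and heart it gave 8 for WY14643 (3.94%) and 5 for rosiglitazone (9.54%). Between liver and kidney it gave 0 for GW501516 (5.41%) and 1 for rosiglitazone (5.05%), and between liver and muscle 2 for rosiglitazone (4.01%).

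Leaving out each array in turn gave 24 to 35 for WY14643, 10 to 17 for GW501516 and 9 to 18 for rosiglitazone in liver. In heart the range was 0 to 0, 0 to 0 and 1 to 4, in kidney 0 to 2, 2 to 12 and 1 to 1, and in muscle 0 to 0 for each compound. Between compounds in liver it was 4 to 11 for WY14643 against GW501516, 15 to 21 for WY14643 against rosiglitazone and 1 to 3 for GW501516 against rosiglitazone. In kidney these were 0 to 1, 1 to 2 and 1 to 5, and WY14643 against rosiglitazone in heart was 0 to 5. Between liver and heart the ranges were 11 to 21, 8 to 10 and 7 to 12, between liver and kidney 3 to 5, 0 to 4 and 1 to 3, and between liver and muscle 4 to 8, 0 to 3 and 3 to 4, each in the order WY14643, GW501516 and rosiglitazone. No share of all genes is given for these fits without a single array. Of the members called in liver, 22 of 31 for WY14643, 10 of 14 for GW501516 and 5 of 13 for rosiglitazone kept their call whichever array was left out, and none of the 9 for GW501516 in kidney did. The 8 that kept it for WY14643 in all settings were Cox7a1, Cox8a, Ndufa2, Ndufa3, Ndufa7, Ndufc1, Uqcr10 and Uqcr11.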
